A study of Homo sapiens with 10 samples.

Results

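The 9 genes described here were grouped as stress effectors downstream of the transcription factors ATF4 and CHOP. Whether each is a target of these factors in the cells used was not tested. The members are the tribbles pseudokinases TRIB1, TRIB2 and TRIB3, the nuclear regulator NUPR1 and the lipoprotein receptor VLDLR. The others are the secreted factors GDF15, FGF21, STC2 and VEGFA. They were chosen by symbol from the table of raw counts, which holds 28380 genes. A row was found for 8 of the 9, FGF21 having no row, and 7 of those 8 were among the 13378 genes with enough counts to be tested. GDF15 was the member with a row that was not tested. The counts came from RPE-1, a human retinal pigment epithelial cell line immortalized with telomerase, after 4 h with either 25 µM sulforaphane (SFN) or its vehicle DMSO. SFN is an electrophilic isothiocyanate derived from cruciferous vegetables. Each group had 5 replicate libraries, and all 10 came from the same line with no genetic change named. Each replicate was made from 50000 cells. The study's methods state in general that experiments had independent replicates, and neither they nor the labels say for these libraries that each was a separate culture, so p-values measure the spread between these libraries, which may be technical.

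When a cell lacks amino acids, accumulates misfolded protein or meets an oxidant, one of several kinases phosphorylates the translation factor eIF2α, general protein synthesis slows, and the mRNA of ATF4 is translated more. ATF4 then switches on genes for amino acid supply and the gene DDIT3, whose product CHOP acts with ATF4 and other C/EBP-family factors on a later set of targets. Among those targets are TRIB3, a kinase-like protein without normal catalytic activity that acts as a scaffold and can restrain CHOP and ATF4 themselves, and secreted hormones that report the stress to other tissues. Tribbles proteins bring substrates to the ubiquitin ligase COP1, among them C/EBPα in the case of TRIB1.

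Of the 7 tested members, 3 rose with SFN (TRIB3, NUPR1 and VLDLR), 2 fell (TRIB1 and TRIB2) and 2 did not pass the test (STC2 and VEGFA). Genes were tested by the quasi-likelihood method of edgeR, and a gene was called at a p under 0.05 after Benjamini-Hochberg adjustment over all 13378 genes. By the same test 1214 genes rose, 9.07% of those tested, and 1862 fell, 13.9%. DMSO replicate 1 stood apart from its group, and with it left out 13566 genes were tested. Of these 3058 rose and 3193 fell, and the same 3 members rose and 2 fell. With all 10 libraries, the rises were 39.5% of the calls with the scaling used and 27.5% with library totals alone. Without DMSO replicate 1 they were 48.9% of the calls. The median log2 fold change was 0.22 over the 7 members and −0.03 over all genes tested. TRIB3 and NUPR1 passed the test with a rise above 2-fold, as did 2.94% of all tested genes. NUPR1 lay close to that limit, with a log2 fold change of 0.95 to 0.999 when DMSO replicate 2, 3 or 5 or SFN replicate 2 was left out. Every SFN library lay above every DMSO library for TRIB3, and for 8.78% of all tested genes. Every SFN library lay below every DMSO library for TRIB1, and for 11.1% of all tested genes.

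The libraries held 15689294 to 20666692 counts in the DMSO group and 12375860 to 17308706 in the SFN group. DMSO replicate 1 stood apart from the other DMSO libraries, with a mean rank correlation of 0.935 to the rest of its group against 0.979 to 0.982 for the other DMSO libraries. The keratin genes KRT8 and KRT18, the eye-field regulator PAX6 and the pigment cell regulator MITF were counted in every library. MITF fell from 50.8 to 23.4 CPM with SFN (edgeR adjusted p = 5.27e-05), CPM being counts per 1000000 of the scaled library total. Of 11 epithelial and pigment epithelial markers, 7 had a mean above 1 CPM. RPE65, RLBP1, TYRP1 and TTR, markers of the differentiated pigment epithelium, were at or near 0. BEST1, from the same list, was counted 97 to 1244 times per library. Its mean was 18.8 CPM with DMSO and 42.4 CPM with SFN (edgeR adjusted p = 0.163). PMEL, also on that list, had 7 to 29 counts per library. No immune, endothelial, hepatocyte or neuronal marker had a mean above 1 CPM. In such bulk libraries, fewer cells of a kind and less RNA per cell cannot be told apart.

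Promoter windows are shown for 3 members: TRIB3 and VLDLR, which rose and have a window in the table used, and FGF21, whose window was the only one among the members to hold the ATF4 element. The windows are from RefSeq (GRCh38.p14) and run from 250 bases before to 50 bases after an annotated start. A window was found for 6 of the 9 members, while TRIB1, NUPR1 and VEGFA had none. Capitals mark a match to any of 4 motifs searched on both strands. These were the composite element of ATF4 and C/EBP factors (TGATGNAA), the antioxidant response element bound by NRF2 (TGACNNNGC), the cAMP response element (TGACGTCA) and the hypoxia core (TACGTG).
TRIB3, chr20:381093-381392, plus strand: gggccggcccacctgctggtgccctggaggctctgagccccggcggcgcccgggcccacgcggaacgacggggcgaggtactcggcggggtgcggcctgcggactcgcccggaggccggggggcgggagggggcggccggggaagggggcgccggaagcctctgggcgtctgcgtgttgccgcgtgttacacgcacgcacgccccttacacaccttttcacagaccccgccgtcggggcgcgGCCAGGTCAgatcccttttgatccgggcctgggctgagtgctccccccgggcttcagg
VLDLR, chr9:2621537-2621836, plus strand: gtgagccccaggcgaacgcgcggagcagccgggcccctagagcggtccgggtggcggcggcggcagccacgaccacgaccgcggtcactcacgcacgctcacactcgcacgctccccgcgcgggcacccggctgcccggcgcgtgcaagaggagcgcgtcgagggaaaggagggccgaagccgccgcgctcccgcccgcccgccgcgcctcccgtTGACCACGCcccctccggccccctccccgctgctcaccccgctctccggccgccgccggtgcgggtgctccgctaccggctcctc
FGF21, chr19:48755274-48755573, plus strand: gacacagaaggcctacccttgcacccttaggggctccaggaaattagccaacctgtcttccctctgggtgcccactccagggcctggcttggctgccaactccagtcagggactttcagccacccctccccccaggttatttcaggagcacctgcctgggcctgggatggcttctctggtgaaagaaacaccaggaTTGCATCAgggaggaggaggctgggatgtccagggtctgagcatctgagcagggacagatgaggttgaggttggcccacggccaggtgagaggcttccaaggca
In the FGF21 window the capitals are the ATF4 and C/EBP element on the minus strand, 54 bases before the start (chr19:48755470-48755477). That motif occurred in 3.62% of all 35116 windows. In the TRIB3 window the capitals are a match to the antioxidant response element on the minus strand (chr20:381335-381343), and RefSeq's 3 overlapping windows of TRIB3 all hold that same match. In the VLDLR window they are a match to the same motif on the plus strand, 35 bases before the start. STC2 held a match too, on the strand opposite to the gene from position 20 after its start, so that 3 members matched a motif present in 13.3% of all windows. The cAMP response element (1.85% of windows) and the hypoxia core (3.24%) were found in no member's window. A match is a description of letters and not a bound site, and the lack of a match concerns only these windows. TRIB3 spans chr20:362835-397559 in GENCODE 44, whose canonical transcript starts at base 380760, so the window shown lies inside the annotated gene.

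TRIB3, the stress-inducible tribbles paralog, had the largest change of the members. Its counts in DMSO replicates 1 to 5 were 116, 102, 91, 67 and 81, or 7.22, 4.65, 5.09, 4.04 and 4.79 CPM. In SFN replicates 1 to 5 they were 615, 617, 530, 535 and 424, or 36.7, 53.2, 39.5, 36.1 and 29.9 CPM. All SFN libraries were above all DMSO libraries, with SFN replicate 2 the highest and DMSO replicate 1 the highest of its group. The mean went from 5.16 ± 1.22 to 39.1 ± 8.64 CPM (SD, n = 5 each), a 7.57-fold rise with a log2 fold change of 2.92 (SE 0.20, 95% interval 2.49 to 3.35, edgeR adjusted p = 1.83e-06). Ordered by log2 fold change, it was number 58 among the 13378 genes.

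TRIB1 (chr8:125430358-125438403), which brings C/EBPα to COP1 for degradation, moved the other way. Its counts were 320, 267, 230, 172 and 217 in DMSO replicates 1 to 5, or 19.9, 12.2, 12.9, 10.4 and 12.8 CPM. With SFN they were 154, 117, 126, 147 and 92, or 9.18, 10.1, 9.38, 9.92 and 6.5 CPM. The groups did not overlap, but the gap was narrow, between DMSO replicate 4 at 10.4 CPM and SFN replicate 2 at 10.1 CPM. DMSO replicate 1 lay well above its group and SFN replicate 5 well below. The mean was 13.6 ± 3.66 CPM with DMSO and 9.01 ± 1.46 CPM with SFN, a log2 fold change of −0.60 (SE 0.19, interval −1.01 to −0.18, edgeR adjusted p = 0.0402). Without DMSO replicate 1 it was −0.43 (adjusted p = 0.0209). The call was lost when any of DMSO replicates 2, 3 and 5 or any SFN library was left out, with adjusted p from 0.0512 to 0.0809. It was also lost with limma-voom after quantile normalization (−0.43, limma adjusted p = 0.153). With replicate number as a block, the edgeR adjusted p was 0.0675.

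TRIB2 (chr2:12716910-12742734), the third paralog, also fell, with fewer counts behind it. DMSO libraries had 81, 142, 155, 127 and 135 counts, or 5.04, 6.47, 8.67, 7.65 and 7.99 CPM. SFN libraries had 86, 57, 44, 73 and 81 counts, or 5.13, 4.92, 3.28, 4.93 and 5.72 CPM. The groups overlapped only through DMSO replicate 1, which lay below SFN replicates 1 and 5. The means were 7.16 ± 1.43 and 4.79 ± 0.91 CPM, a log2 fold change of −0.58 (SE 0.19, interval −0.99 to −0.16, edgeR adjusted p = 0.0472). Without DMSO replicate 1 the change was −0.68 (adjusted p = 0.00376). The call was lost without any of DMSO replicates 2 to 5 or SFN replicates 1 to 4, with adjusted p from 0.0684 to 0.113. It was also lost with limma-voom after quantile normalization (−0.36, limma adjusted p = 0.238) and without it (0.0557). In edgeR it was lost with DESeq2 size factors (adjusted p = 0.0528), without the low-count filter (0.0795) and with replicate number as a block (0.106).

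The balance of the family within a library differed between the groups. TRIB3 moved most, from a mean of 5.16 to 39.1 CPM. TRIB1 went from 13.6 to 9.01 CPM and TRIB2 from 7.16 to 4.79 CPM. Shares depend on each other, so a rise of TRIB3 by itself lowers the shares of TRIB1 and TRIB2. Per the study's methods the counts come from transcript 3′ ends, and they are not scaled by length, so only the shift in shares between groups is described. TRIB3 made up 22.4, 19.96, 19.1, 18.3 and 18.7% of the tribbles counts in DMSO replicates 1 to 5. It made up 71.9, 78.0, 75.7, 70.9 and 71.0% in the SFN replicates. The exact binomial 95% intervals reached no higher than 26.3% with DMSO and no lower than 67.2% with SFN, and cover counting error only. The mean share of TRIB1 was 51.9 ± 5.92% with DMSO and 17.1 ± 1.96% with SFN, and that of TRIB2 was 28.4 ± 7.54% and 9.36 ± 2.85% (SD, n = 5 each). TRIB3 counts per TRIB1 count were 0.381 ± 0.013 in DMSO and 4.34 ± 0.627 in SFN. That ratio was narrow among the DMSO libraries, from 0.362 to 0.396, DMSO replicate 1 included, although both genes were highest there. The CPM of the 3 paralogs summed to 26.0 ± 3.93 with DMSO and 52.9 ± 9.47 with SFN. The highest DMSO sum, 32.2, was below the lowest SFN sum, 42.2.

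**Figure D1:**
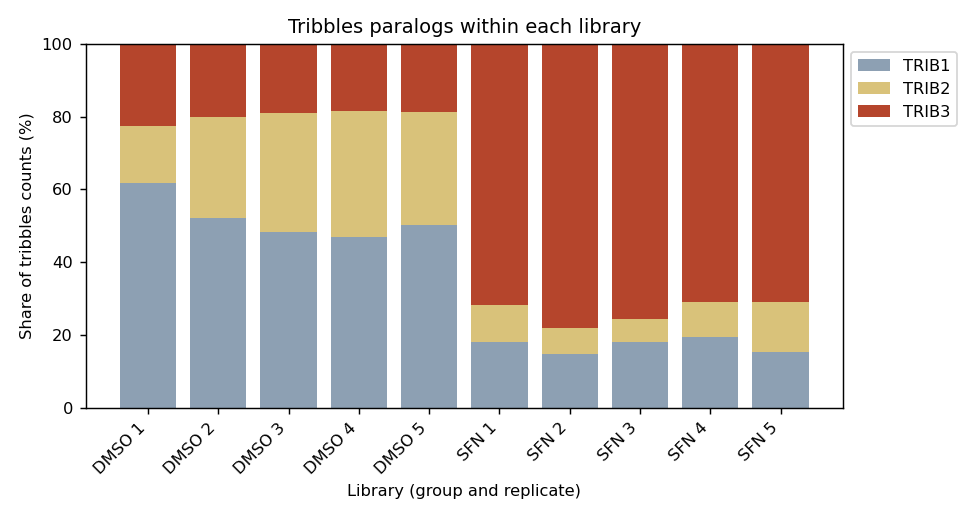
Share of each library's tribbles counts (%, vertical axis) from TRIB1, TRIB2 and TRIB3, for the 5 DMSO and 5 SFN replicates on the horizontal axis. TRIB3 takes 18.3 to 22.4% in DMSO and 70.9 to 78.0% in SFN.

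NUPR1 (chr16:28532708-28539008, minus strand), a small chromatin-associated stress protein, rose. DMSO libraries had 42.9, 20.1, 17.1, 20.7 and 16.8 CPM. SFN libraries had 48.8, 63.8, 46.7, 49.4 and 35.2 CPM. DMSO replicate 1 lay above SFN replicate 5, and this was the only overlap of the groups. The means were 23.5 ± 10.98 and 48.8 ± 10.2 CPM, a log2 fold change of 1.05 (2.07-fold, SE 0.26, interval 0.48 to 1.62, edgeR adjusted p = 0.0128). Without DMSO replicate 1 the log2 fold change was 1.38 (adjusted p = 5.29e-06) and the groups no longer overlapped. A long noncoding gene on the same strand (ENSG00000289754, chr16:28537040-28620133) overlaps NUPR1 and had no row, and reads of the 2 could not be told apart by strand.

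VLDLR (chr9:2621182-2660056), which takes up triglyceride-rich lipoproteins and also receives reelin, rose more modestly. DMSO libraries had 4.86, 7.15, 6.43, 7.95 and 7.52 CPM. SFN libraries had 12.3, 9.49, 7.67, 10.7 and 10.7 CPM. SFN replicate 3 lay below DMSO replicate 4, and the other SFN libraries were above all DMSO libraries. The means were 6.78 ± 1.21 and 10.2 ± 1.71 CPM, a log2 fold change of 0.58 (SE 0.17, interval 0.22 to 0.95, edgeR adjusted p = 0.0266). The call was lost without any of DMSO replicates 2 and 3 or SFN replicates 1, 4 and 5 (adjusted p from 0.0516 to 0.0764), and with library totals alone (adjusted p = 0.0968). It was lost too without the low-count filter (edgeR adjusted p = 0.0591) and with replicate number as a block (0.0648). The antisense gene VLDLR-AS1 overlaps the 5′ end of VLDLR and had 0 to 12 counts in any library, and the use of strand in the counting is not given in the sources used here.

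**Figure D2:**
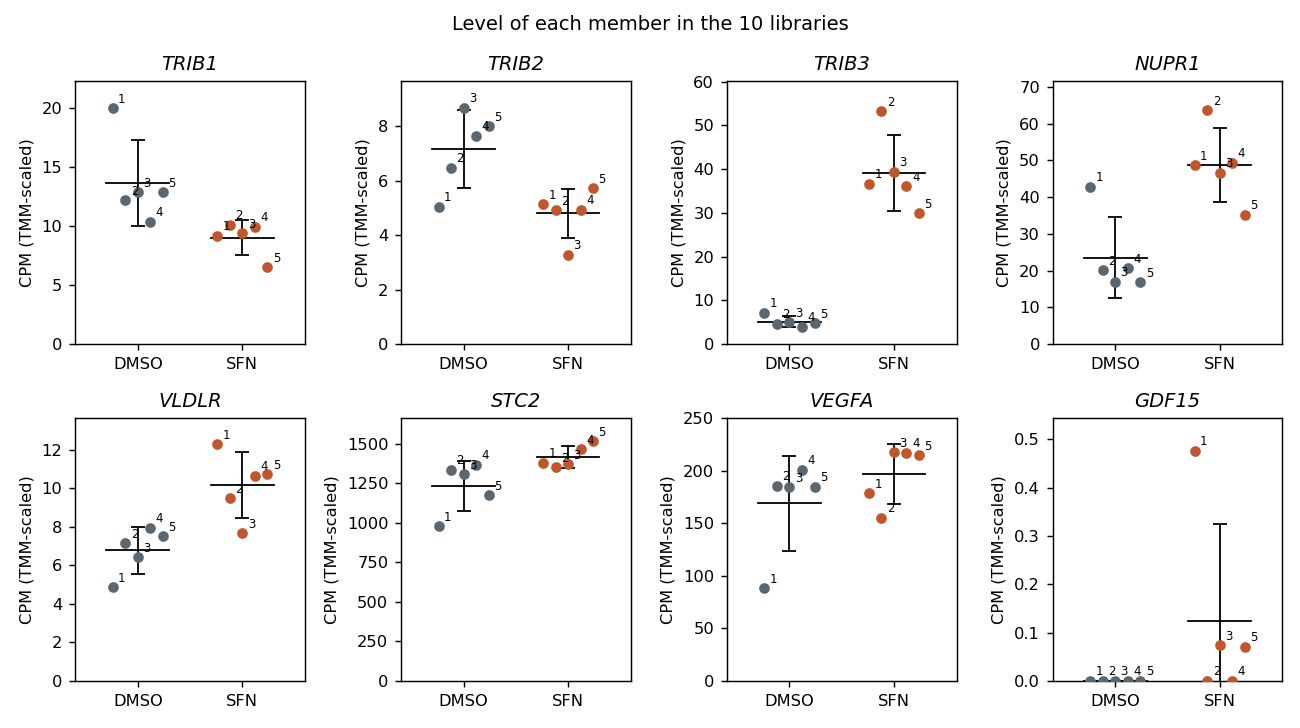
Level in CPM (vertical axis, from 0, a different scale in each panel) of the 8 members with a row, in the 5 DMSO and 5 SFN libraries, with numbers naming replicates, lines the group mean and bars 1 SD (cut off at 0 for GDF15). TRIB3 separates the groups by the widest margin, and DMSO replicate 1 is the highest DMSO point for TRIB1, TRIB3 and NUPR1 and the lowest for TRIB2, VLDLR, STC2 and VEGFA.

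STC2 (chr5:173314723-173328447, minus strand), a secreted glycoprotein that blocks the proteinase PAPP-A and thereby holds back release of insulin-like growth factor, did not pass the test. Its level in DMSO replicates 1 to 5 was 976, 1335, 1308, 1366 and 1173 CPM. In SFN replicates 1 to 5 it was 1377, 1350, 1370, 1462 and 1513 CPM. SFN replicates 1, 3, 4 and 5 lay above the highest DMSO library, and SFN replicate 2 lay below DMSO replicate 4 and above the other DMSO libraries. The means were 1231 ± 160 and 1414 ± 69.8 CPM, a log2 fold change of 0.20 (interval −0.05 to 0.45, edgeR adjusted p = 0.254), so a rise of up to 0.45 or a fall of 0.05 lay within the interval. STC2 was counted 15649 to 29289 times per library, so counting error is a small part of its spread.

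VEGFA (chr6:43770184-43786487), the angiogenic growth factor that ATF4 as well as hypoxia can induce, did not pass either. DMSO libraries had 88.2, 186, 185, 201 and 185 CPM. SFN libraries had 179, 155, 218, 217 and 215 CPM. DMSO replicate 1 was far below all others, and SFN replicates 1 and 2 were below the remaining DMSO libraries. The means were 169 ± 45.6 and 197 ± 28.3 CPM, a log2 fold change of 0.22 (interval −0.22 to 0.66, edgeR adjusted p = 0.495). Without DMSO replicate 1 it was 0.05 (adjusted p = 0.700).

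GDF15 (chr19:18374731-18389176), a stress hormone that signals to the hindbrain, was barely counted. It had 0 counts in every DMSO library, which allows a level of at most 0.137 to 0.187 CPM at 3 counts per library. SFN replicates 1 to 5 had 8, 0, 1, 0 and 1 counts. Most of the 10 counts thus came from SFN replicate 1. The mean difference was 0.124 CPM, and a two-sided exact permutation test over the 10 libraries gave p = 0.167, where the smallest p possible was 0.00794. Leaving out SFN replicate 2 or SFN replicate 4, which had no count, gave an exact p of 0.0476. The other hormone of the list, FGF21 (chr19:48755524-48758333), had no row and no value is given.

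**Figure D3:**
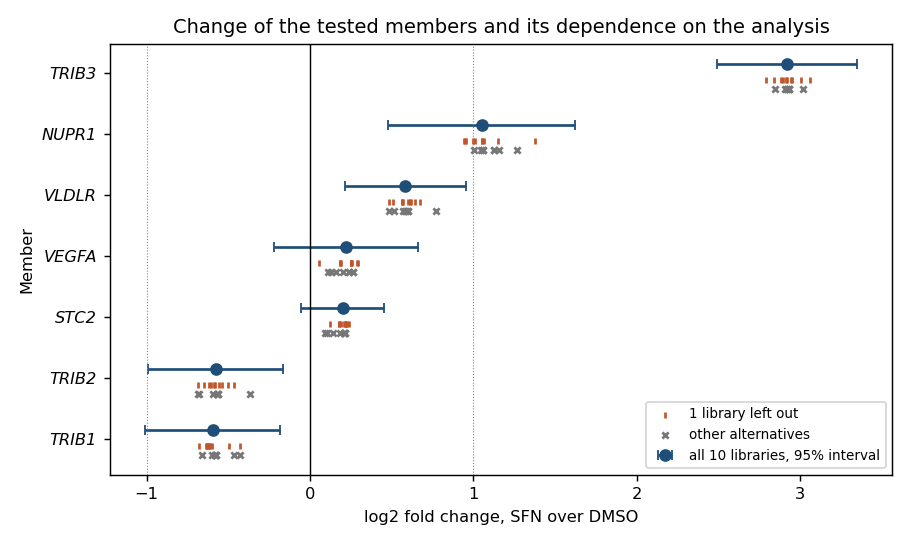
Log2 fold change of SFN over DMSO (horizontal axis) for the 7 tested members (vertical axis), as circles with 95% intervals from all 10 libraries, orange ticks with 1 library left out, and grey crosses for other scalings, tests and filters; dotted lines mark a 2-fold change. No alternative moved a member across 0, and TRIB3 stayed between 2.79 and 3.06.

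The 7 tested members differed in how DMSO replicate 1 sat against the other DMSO libraries. On the log2 scale it exceeded their mean by 1.18 for NUPR1, 0.71 for TRIB1 and 0.59 for TRIB3. It was below their mean by a log2 difference of −1.09 for VEGFA, −0.56 for TRIB2, −0.53 for VLDLR and −0.41 for STC2. The part of this library's makeup in the members' changes was not tested beyond the values given without it.

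Part of the genes listed upstream of the members rose. Of 14 tested transcription factors, eIF2α kinases and eIF2α phosphatase subunits, 8 rose and 0 fell, beside 9.07% and 13.9% of all tested genes. Their median log2 fold change was 1.12 against −0.03 for all genes. The phosphatase subunits, which oppose the kinases, are counted among the 8 (PPP1R15A at 1.90 and PPP1R15B at 0.91). ATF4 rose 2.83-fold (log2 SE 0.26, edgeR adjusted p = 0.00153) and DDIT3, which encodes CHOP, by 2.21 on the log2 scale (SE 0.19, adjusted p = 1.07e-05). ATF3, a stress-induced factor that ATF4 activates, rose by 3.04 (SE 0.21, adjusted p = 2.48e-06). EIF2AK3, which encodes the endoplasmic reticulum kinase PERK, rose by 1.33 (SE 0.19, adjusted p = 3.43e-04). The kinase genes EIF2AK1 (0.14, edgeR adjusted p = 0.725), EIF2AK2 (−0.14, adjusted p = 0.637) and EIF2AK4 (−0.36, adjusted p = 0.230) did not pass. Among 19 other targets of ATF4 and CHOP, 15 rose and 0 fell, beside the same 9.07% and 13.9% of all tested genes, with a median of 1.26. The largest rises were those of CHAC1, a glutathione-degrading enzyme, at 7.02 (SE 0.27), DDIT4, an inhibitor of mTORC1, at 4.62 (SE 0.19), ASNS, asparagine synthetase, at 3.79 (SE 0.24), and CTH, the cysteine-forming enzyme of transsulfuration, at 3.63 (SE 0.23). CHAC1 had 1 to 4 counts per DMSO library and ASNS 4 to 10, so the size of these rises rests on few DMSO counts. The members' median of 0.22, TRIB1 and TRIB2 included, was thus below that of the 19 listed targets. TRIB3 was the one member above the median of that list. This difference between the lists was not tested. In the fit without DMSO replicate 1, 3058 of 13566 tested genes rose and 3193 fell. There 9 of the 14 upstream genes rose and 1 fell, and 15 of the 19 other targets rose and 0 fell.

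Of 8 tested partners and substrates of the tribbles proteins, 1 rose and 0 fell, with a median of 0.22, while 9.07% of all tested genes rose and 13.9% fell. The one that rose was STK40, a related pseudokinase that also binds COP1, at 0.76 (1.69-fold, SE 0.13, edgeR adjusted p = 0.00126). COP1 itself, the ligase that tribbles proteins recruit, had a log2 fold change of 0.23 (SE 0.10, adjusted p = 0.140). CEBPB had 0.81 (SE 0.27, adjusted p = 0.0505) and did not pass. Of 20 tested pseudokinases outside the family, 1 rose (STK40) and 3 fell, with a median of 0.08, beside 9.07% and 13.9% of all tested genes. KSR1, a scaffold of the MAP kinase cascade, fell by 1.74 (SE 0.31, adjusted p = 0.00185), PIK3R4, a subunit of the autophagy lipid kinase complex, by 0.53 (SE 0.14, adjusted p = 0.0168) and SCYL3 by 0.43 (adjusted p = 0.0432). With DMSO replicate 1 left out, 3058 of 13566 tested genes rose and 3193 fell. In that fit 2 of 8 tested partners rose and 1 fell, and 4 of 21 tested pseudokinases rose and 5 fell.

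The lists of receptors and relatives of the secreted members were small, and their calls are read against 9.07% of all genes rising and 13.9% falling. No gene of the GDF15 receptor was tested, as RET had too few counts and GFRAL had no row. The 2 tested genes of that list, FURIN and MMP14, encode proteinases. For FGF21 the 2 tested genes were the receptor FGFR1 and the proteinase FAP. None of these, nor of the 3 tested partners of NUPR1, was called by edgeR at an adjusted p under 0.05. The gene of the STC2 target PAPPA, a proteinase that cleaves IGF-binding proteins, fell by 0.66 (SE 0.22, adjusted p = 0.0485), the 1 call among 4 tested. KDR, the main signalling receptor for VEGFA, fell by 1.77 (SE 0.42, adjusted p = 0.00934), the 1 call among 5, from 4.36 to 1.27 CPM. When DMSO replicate 1 was left out, 3058 of 13566 tested genes rose and 3193 fell. In that fit FURIN and MMP14 rose, 1 of the 2 genes for FGF21 rose, and 2 of the VEGFA family and receptors fell.

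Of 8 tested secreted stress factors other than the members, 1 rose and 1 fell, against 9.07% and 13.9% of all genes, with a median of −0.37. MANF, an endoplasmic reticulum protein released under stress, rose by 0.93 (SE 0.15, edgeR adjusted p = 0.00103), and LIF, a cytokine of the interleukin 6 family, fell by 0.54 (SE 0.17, adjusted p = 0.0432). ADM2 was not tested, with 0 counts in every DMSO library and 2 to 5 counts in each SFN library. Of 12 tested targets of the hypoxia factor HIF, which also drives VEGFA, 3 rose and 0 fell, with a median of 0.12. These were P4HA1 at 0.79, BNIP3L at 0.53 and PGK1 at 0.46. Of 12 tested targets of p53, which also drives GDF15, 1 rose and 4 fell, with a median of 0.03. CDKN1A, an inhibitor of the cell cycle, rose by 0.46 and BTG2, an antiproliferative gene, fell by 2.93 on the log2 scale. Without DMSO replicate 1, when 3058 of 13566 tested genes rose and 3193 fell, 2 secreted factors rose and 1 fell. Their median was −0.0014 in place of −0.37. In that fit 4 HIF targets rose and 1 fell, and 2 p53 targets rose and 4 fell.

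**Figure D4:**
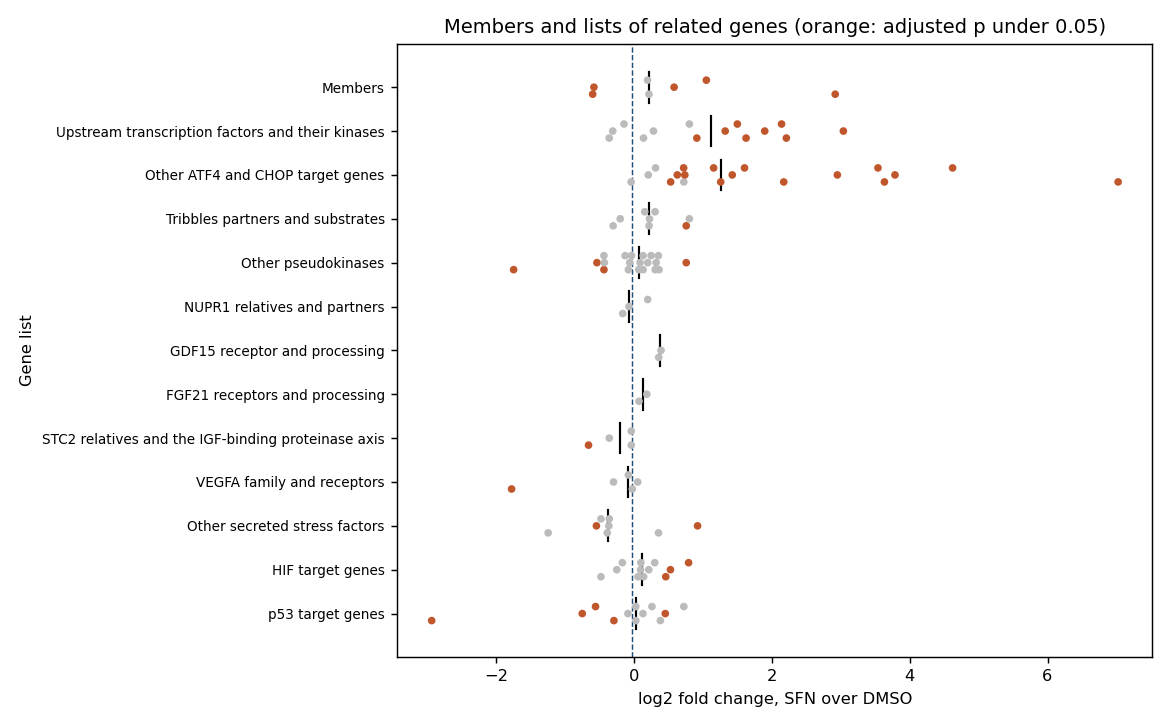
Log2 fold change of SFN over DMSO (horizontal axis) for each tested gene of the members and of 12 lists of related genes (vertical axis), with orange for an adjusted p under 0.05, black bars the median of a list and the dashed line the median of all tested genes at −0.03. Medians of 1.12 and 1.26 for the upstream genes and the other ATF4 and CHOP targets stand to the right of the members' 0.22.

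The genes whose levels followed each member most closely were found among 10039 genes with a mean of at least 5 CPM, by the root mean square difference in log2 CPM over the 10 libraries after centring each gene on its mean. The value is a description over libraries that fall into the groups compared. For TRIB3 they were HERPUD1 (0.186), SMG1P7 (0.249) and BAG3 (0.269). HERPUD1, a component of endoplasmic reticulum degradation that is itself in the list of other targets, had a log2 fold change of 2.95, close to the 2.92 of TRIB3. For NUPR1 they were CARS (0.153), which encodes cysteinyl-tRNA synthetase, KRCC1 (0.164) and NNMT (0.177). For VLDLR the nearest genes were FBXO38 (0.106), ZNF761 (0.128) and FXR1 (0.133). For TRIB1 they were TUBB6 (0.104), AGAP3 (0.114) and YARS2 (0.114), and for TRIB2 WNK3 (0.107), RPS6KA1 (0.124) and RUFY3 (0.137). STC2 was followed most closely by ARIH2 (0.0516), LRIG1 (0.0559) and RNF4 (0.0580), and VEGFA by UNC119B (0.0825), SCD (0.0864) and PDXDC1 (0.0896).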

How the data were processed

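RNA of RPE-1 cells was sequenced by the authors with a Lexogen QuantSeq protocol per the study's methods, while the labels name standard Illumina library preparation. Per the submitters' processing notes, FastQC, STAR, featureCounts and edgeR were used with hg38. Versions, the annotation release and the use of strand are not given in the sources used here. What the authors deposited are raw counts for each Ensembl gene and each library, not normalized. The members, gene lists and motifs were chosen with earlier results of these data known.

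Genes were filtered with filterByExpr, scaled by TMM and compared with glmQLFit and glmQLFTest in edgeR 4.0.16 (R 4.3.3), with Benjamini-Hochberg adjustment. Standard errors were taken as |log2 fold change| over the root of the F statistic. The procedure was tested on simulated data. GDF15, below the filter, was tested by exact permutation. Chi-square per degree of freedom between replicates was 3.50 or more, so no pair matched within sampling noise. Genes with values are all members, at most 4 called genes of a list by size of change, 4 upstream genes fixed by name, and the 3 nearest in pattern. COP1, CEBPB, ADM2 and the list counts without DMSO replicate 1 were added after their values were seen. So were the values of PPP1R15A, PPP1R15B, EIF2AK1, EIF2AK2, EIF2AK4, BEST1 and PMEL. Alternatives were DESeq2 1.42.0 and its size factors, library totals, limma-voom (limma 3.58.1) with and without quantile normalization, no filter, a 2-fold limit, a replicate block, and leaving out libraries. A list of related genes is not reported here. Positions are from GENCODE 44 (GRCh38). Counts of libraries ranged from 12375860 to 20666692.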

Additional observations from a re-analysis of the deposited data

Results flagged for a closer look

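The 19 groups of 5 libraries examined were those of each member, the TRIB3 share and the family sum. A library's gap to its nearest neighbour was taken as a share of the whole range of its group. In 5 groups a gap passed Dixon's 95% critical value of 0.71 for 5 samples. Independent, normally distributed groups would give 0.95. These groups share libraries and tribbles counts, and GDF15 was barely counted, so the 5 cannot be compared with that number. DMSO replicate 1 was the library in 3 of the 5 groups. For VEGFA its gap was 0.855 of the range, 88.2 CPM against 185 to 201 CPM in the other DMSO libraries. For NUPR1 the gap was 0.850, 42.9 CPM against 16.8 to 20.7 CPM, and for TRIB1 it was 0.739, 19.9 CPM against 10.4 to 12.9 CPM. SFN replicate 5 was low for TRIB1, with a gap of 0.746, at 6.5 CPM against 9.18 to 10.1 CPM. SFN replicate 1 was high for GDF15, with a gap of 0.844, at 8 counts against 0 or 1.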

How the results depend on the processing

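No member changed direction under any of the 18 alternatives computed for it. TRIB3 and NUPR1 passed the threshold in 18 of 18, VLDLR in 10, TRIB1 in 8, TRIB2 in 5, and STC2 and VEGFA in 0. The number of members called, 5 with all libraries, was 3 without the low-count filter, 3 with limma-voom after quantile normalization, 2 with a log2 fold change above 1 and from 2 to 5 when 1 library was left out. The causes were not tested. Over all genes the 3076 calls became 1163 with that fold limit, 2383 to 6251 with 1 library left out (6251 without DMSO replicate 1), and 6379 with DMSO replicate 1 and SFN replicate 2 both out, an alternative added after seeing the data. The GDF15 difference ranged from 0.0364 CPM without SFN replicate 1 to 0.157 CPM without SFN replicate 2, and its exact permutation p was 0.0476 without SFN replicate 2 or 4. Library totals alone shifted the median log2 fold change of all genes to −0.11. With the replicate block 2 members were called (TRIB3 and NUPR1) and 2441 genes. The study's model accounted for repeated measures, in a way its methods do not define. Deviations of same-numbered libraries correlated from −0.33 to 0.56, over 0.1 in 1 of 5 pairs. Of 10 libraries, 2 correlated best with their own number. This check cannot exclude pairing, since DMSO replicate 1 stood apart and DMSO replicates 2 to 5 had similar deviations. With SFN replicate 2, for example, those 4 correlated from −0.45 to −0.33. Depth limits GDF15, at 10 counts in all, and low members such as TRIB2, at 44 to 155 counts per library.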
